A study of Mus musculus with 10 samples.

Results

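The genes described here are 10 regulators of cell cycle arrest and cell stress, measured in the mammary gland of mice fed control or high folic acid (FA). They are 3 inhibitors of cyclin-dependent kinases (Cdkn1a, Cdkn1b and Cdkn1c), 3 Gadd45 stress sensors (Gadd45a, Gadd45b and Gadd45g) and 4 targets of the transcription factor p53 (Bbc3, Mdm2, Ccng1 and Trp53inp1). These 10 genes were selected on their known function with the diet comparison of these same libraries already known, so the difference between diets given here for each of them is a description and no independent support. All 10 were found among the 46983 genes of the count tables, and all 10 were among the 15610 genes with enough reads to be tested. The tissue was the intact right thoracic mammary fat pad of female C57BL/6 mice at post-natal day 130. Each mouse had eaten a diet with 1 mg FA/kg (CFA) or 5 mg FA/kg (HFA) for 4 weeks, and then the AIN93M maintenance diet for the 4 weeks before collection, so both groups were on the same diet when sampled. All mice were fasted before tissue collection, and there were 5 libraries per group, each from 1 mouse. The library titles serve as names here: T1224, T1234, T1314, T1324 and T1334 were CFA, and T2214, T2224, T2234, T2314 and T2334 were HFA.

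The p53 protein is held low by Mdm2, an enzyme that marks it for breakdown, and accumulates when DNA is damaged or the cell is stressed. It then switches on genes that halt the cell cycle, such as Cdkn1a, that sense stress, such as Gadd45a, or that start cell death, such as Bbc3. Several of these genes are also switched on without p53: by glucocorticoids, FOXO factors or differentiation signals, for example when a cell leaves the cell cycle to mature. In the mammary gland they take part in the balance between growth of the ducts and loss of cells. The fat pad holds fat, blood vessels, nerves and often lymph node or muscle besides the ducts, so each level below is a mix over cell types. Fewer cells of a type and less RNA per cell cannot be told apart in such libraries.

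The DNA just upstream of these genes is shown first, because p53 recognises a short DNA unit of 10 bases (a p53 half-site) and the genes differed in whether their upstream window held one. RefSeq start sites (GRCm38.p6) gave windows for 8 of the 10 genes; Cdkn1c and Trp53inp1 had no entry. In the 250 bases before a start, the half-site was found in 4 of the 8 genes (Cdkn1a, Gadd45a, Mdm2 and Ccng1), against 8.20% of 27025 genes and 7.13% of 32851 windows of the same length. Cdkn1a had more than 1 RefSeq start, and its window at chr17:29093519-29093768 held no half-site. Its window at chr17:29090729-29090978 on the plus strand held 2 half-sites, 73 and 51 bases before that start, shown in capitals:

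Cdkn1a: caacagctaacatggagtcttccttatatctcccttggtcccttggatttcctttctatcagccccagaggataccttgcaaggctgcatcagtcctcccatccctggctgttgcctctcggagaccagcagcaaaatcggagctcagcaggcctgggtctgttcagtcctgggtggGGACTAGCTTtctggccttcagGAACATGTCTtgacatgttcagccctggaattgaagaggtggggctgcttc

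In Mdm2 the half-site began 186 bases before the start and in Ccng1 185 bases before it. The 50 bases around each, with the half-site in capitals, were read on the minus strand at chr10:117710915-117710964 and chr11:40755442-40755491:

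Mdm2: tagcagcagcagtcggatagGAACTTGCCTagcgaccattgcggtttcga

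Ccng1: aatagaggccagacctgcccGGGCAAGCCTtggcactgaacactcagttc

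The half-site of Gadd45a lay 40 bases before its RefSeq start. Gadd45g is shown for contrast, since its diet difference was the largest of the 10 and its window held no half-site. Its 250 bases at chr13:51846425-51846674 on the plus strand held instead, in capitals, the sequence CACGTG 142 bases, CCAAT 78 bases and TATAAA 27 bases before the start:

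Gadd45g: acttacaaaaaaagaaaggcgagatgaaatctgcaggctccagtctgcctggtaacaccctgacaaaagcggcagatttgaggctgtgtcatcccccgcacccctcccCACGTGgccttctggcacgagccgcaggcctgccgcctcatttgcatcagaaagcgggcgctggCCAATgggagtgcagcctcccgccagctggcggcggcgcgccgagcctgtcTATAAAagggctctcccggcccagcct

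Over all windows, searched on both strands, CACGTG was present in 6.02%, CCAAT in 33.8% and TATAAA in 12.4%. A match is a run of letters and not a measured binding site, and its absence says nothing about p53 at sites outside the window.

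Before the genes, 3 libraries need to be named. Counted reads ran from 7672199 to 14829291 per library, and these genes had from 16 reads (Bbc3 in T2234) to 10556 reads (Ccng1 in T2224). Values are given as CPM, a gene's reads relative to all counted reads of its library, after TMM scaling for library composition. Summed markers of B and T cells reached 359 CPM in T1234, 907 CPM in T1334 and 2560 CPM in T2334, and were 6.58 to 10.9 CPM in the other 7 libraries. T2334 (HFA) also stood apart from the rest as a whole, with a median correlation of 0.798 to the other libraries against 0.918 to 0.970 for the other 9. Its skeletal muscle markers summed to 635 CPM against 6117 to 49639 CPM elsewhere, and its epithelial markers (keratins, Epcam and Cdh1) to 226 CPM against 364 to 1745 CPM. Epithelial and white adipocyte markers were detected in every library, as the tissue label calls for, while muscle and brown adipocyte markers came with them. Each diet value below is therefore followed, where it matters, by its value without T2334 or without all 3 libraries.

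Levels can be set against each other only per length of transcript. Per kilobase of exon, Ccng1 was by far the most abundant of the 10, at 146 ± 57.1 CPM per kb in CFA and 198 ± 86.9 in HFA (SD, n = 5), and in both diets its lowest library lay above the highest library of the next gene. In CFA it was followed by Cdkn1c (21.3), Cdkn1b (19.5), Gadd45b (12.2), Gadd45g (11.2), Trp53inp1 (10.2), Mdm2 (7.80), Gadd45a (7.21), Cdkn1a (5.22) and Bbc3 (2.54 CPM per kb). Every pair of neighbours from Cdkn1c down to Cdkn1a overlapped in range, and Bbc3 lay below Cdkn1a without overlap. In HFA the place below Ccng1 was held by Gadd45g, at 31.2 ± 7.77 CPM per kb, and Cdkn1a stood at 10.5 ± 1.53 CPM per kb, above Mdm2 (8.84) and Gadd45a (8.02), though the ranges of these neighbours overlapped.

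**Figure D1:**
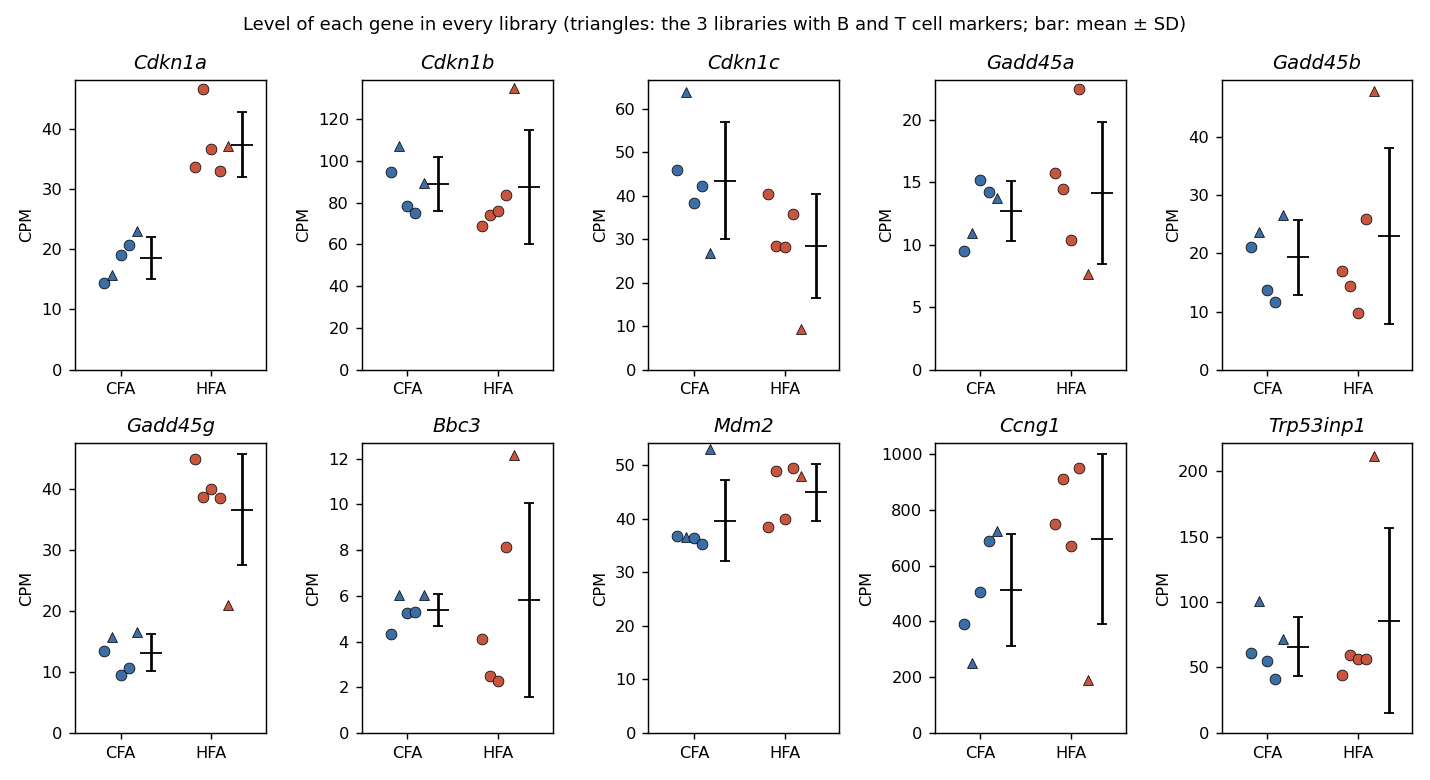
Level of each gene (CPM, linear axes from 0) in the 5 CFA (blue) and 5 HFA (red) libraries, with the mean and SD as a bar and with triangles for the 3 libraries that hold B and T cell markers. Only for Cdkn1a and Gadd45g do the diets separate without overlap, and the HFA triangle (T2334) is the extreme HFA library for 8 of the 10 genes.

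Cdkn1a and Gadd45g were the 2 genes of the 10 whose HFA libraries all lay above all CFA libraries. The test over all genes was edgeR quasi-likelihood, adjusted by Benjamini-Hochberg over 15610 genes. No tested gene passed an adjusted p of 0.05, so 0 of the 10 genes were called against a background of 0.00%. The study did report differentially expressed transcripts at this threshold, most of them upregulated in HFA, from an edgeR model that also held cage. At an unadjusted p of 0.05 in the fit made here, 2 of the 10 passed (Cdkn1a and Gadd45g) against 7.36% of all genes (1149 genes). Complete separation with HFA above CFA held for the same 2 genes and for 0.75% of all genes (117 genes). The genes had been picked with this contrast in view, so nothing is read from these shares. A higher fitted level in HFA was found for 8 of the 10 and for 60.0% of all genes. The median log2 fold change was 0.22 over the 10 and 0.064 over all genes. The share of all genes on the higher side was 49.6% under upper-quartile scaling, under which 8 of the 10 were still on that side, and without T2334 5 of the 10 and 44.9% of all genes were.

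Cdkn1a encodes p21, the p53-induced inhibitor that stops cyclin-dependent kinases at the entry to DNA synthesis. It lies on chromosome 17 from 29090976 to 29100727 (GRCm38, plus strand). Its level was 14.4 CPM in T1224, 15.7 in T1234, 19.1 in T1314, 20.7 in T1324 and 23.0 in T1334 among the CFA mice. Among the HFA mice it was 33.7 CPM in T2214, 46.6 in T2224, 36.6 in T2234, 33.01 in T2314 and 37.2 in T2334. The lowest HFA library lay clearly above the highest CFA library, and T2334, the highest or lowest HFA library for 8 of the 10 genes, was within the range of the other HFA libraries here. The mean was 18.6 ± 3.55 CPM for CFA and 37.4 ± 5.44 CPM for HFA (SD, n = 5), a ratio of 2.02. The fitted log2 fold change was 1.01 (SE 0.161), the third smallest p of all genes, with an adjusted p of 0.376 by edgeR's quasi-likelihood test.

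Gadd45g belongs to a family of small proteins that bind stress kinases and cyclin complexes, and it is induced by growth arrest, cytokines and differentiation. It lies on chromosome 13 from 51846678 to 51848468 (plus strand). In the CFA mice it was measured at 13.4 CPM in T1224, 15.7 in T1234, 9.49 in T1314, 10.7 in T1324 and 16.6 in T1334. The HFA mice had 44.9 CPM in T2214, 38.6 in T2224, 40.02 in T2234, 38.5 in T2314 and 21.0045 in T2334. The other 4 HFA libraries lay close together and T2334 fell between them and the CFA group. The means were 13.2 ± 3.07 CPM and 36.6 ± 9.12 CPM (SD, n = 5), a ratio of 2.78, and the log2 fold change was 1.48 (SE 0.231) with an adjusted p of 0.376 by the same test, the second smallest p of all genes.

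Whether these 2 genes passed the threshold depended on the test and the libraries, while their direction did not. The edgeR likelihood ratio test called both (adjusted p 0.00527 for Cdkn1a and 3.51e-04 for Gadd45g), against 0.211% of all genes. DESeq2 called both (3.10e-05 and 1.26e-05), against 0.384%. The limma voom fit with quality weights, which gives outlying libraries less weight, called both (0.0308 and 0.00190), but there 6.64% of all genes were called. Leaving out T2334 from the quasi-likelihood fit gave adjusted p of 0.0536 for Cdkn1a and 0.0259 for Gadd45g, against 0.0381% of 15735 genes. Leaving out any other single library from that fit gave adjusted p between 0.146 and 0.999 for both genes. Leaving out all 3 libraries with B and T cell markers, a choice made after seeing the data, gave log2 fold changes of 1.05 and 1.85 with adjusted p of 0.0428 and 0.0118, where 469 genes were called. Ordinary limma voom gave an adjusted p of 0.690 for both. Of 28 alternative fits, 5 called Cdkn1a and 6 called Gadd45g.

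The second digit of the library titles, whose meaning the labels do not give, split the libraries in 2 sets. Within titles with the digit 2, the log2 fold change was 1.41 for Cdkn1a and 1.54 for Gadd45g. Within titles with the digit 3 it was 0.66 and 1.20. Both genes were thus higher in HFA in both sets, though the second set, with T1334 and T2334 in it, gave an adjusted p of 0.993 for either gene in the quasi-likelihood fit.

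**Figure D2:**
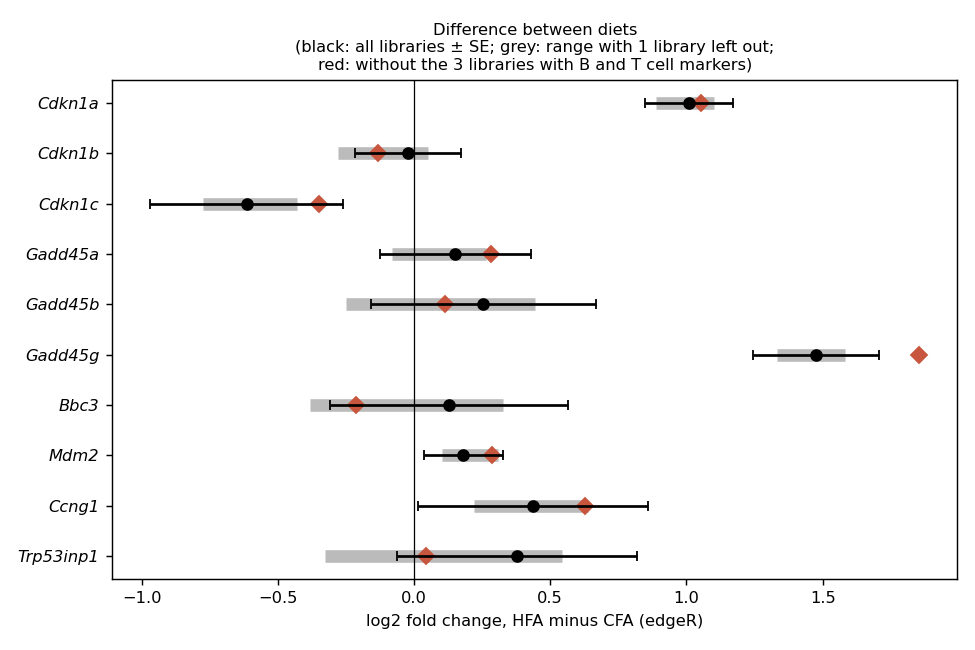
Fitted log2 fold change of each gene, HFA minus CFA, with its SE (black), the range when 1 library at a time was left out (grey) and the value without the 3 libraries with B and T cell markers (red). Cdkn1a (0.89 to 1.10), Gadd45g (1.33 to 1.58), Mdm2 (0.10 to 0.31) and Ccng1 (0.22 to 0.64) keep to the right of 0 in every case. Cdkn1c keeps to the left, and Cdkn1b, Gadd45a, Gadd45b, Bbc3 and Trp53inp1 cross 0.

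The other 2 CDK inhibitors did not follow Cdkn1a. Cdkn1c (p57, chromosome 7 from 143458339 to 143461050, minus strand) is an imprinted inhibitor that keeps maturing cells out of the cycle. Its CFA levels were 45.9 CPM in T1224, 63.9 in T1234, 38.4 in T1314, 42.3 in T1324 and 26.7 in T1334. Its HFA levels were 40.4 CPM in T2214, 28.4 in T2224, 28.2 in T2234, 35.8 in T2314 and 9.29 in T2334. No HFA library reached the CFA mean of 43.5 ± 13.5 CPM, but the groups overlapped, and the HFA mean was 28.4 ± 11.9 CPM (SD, n = 5). The log2 fold change was -0.61 (SE 0.354, adjusted p 0.707, edgeR quasi-likelihood) and -0.43 without T2334.

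Cdkn1b (p27, chromosome 6 from 134920401 to 134925513, plus strand) holds resting cells out of the cycle and is controlled largely at the level of its protein. It ranged from 75.2 to 107 CPM in CFA and from 68.6 to 83.7 CPM in 4 HFA libraries, with T2334 at 135 CPM. Its means were 89.0 ± 12.9 and 87.5 ± 27.2 CPM (SD, n = 5) and its log2 fold change -0.023 (SE 0.195, adjusted p 0.983, edgeR quasi-likelihood), which was -0.28 without T2334.

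Gadd45a and Gadd45b also differed from Gadd45g. Gadd45a (chromosome 6 from 67035096 to 67037457, minus strand), the family member most directly tied to p53, ranged from 9.48 to 15.2 CPM in CFA and from 7.64 to 22.5 CPM in HFA. The HFA range enclosed the CFA range, with T2314 highest and T2334 lowest. Its log2 fold change was 0.15 (SE 0.276, adjusted p 0.910, edgeR quasi-likelihood). An antisense transcript overlaps Gadd45a, and the libraries did not keep strand, so reads of the 2 cannot be told apart where they overlap. The counting leaves out reads shared by overlapping genes, so the level of Gadd45a may be too low. Gadd45b (chromosome 10 from 80930073 to 80932204, plus strand), an early gene of NF-kB and stress signalling, ranged from 11.7 to 26.6 CPM in CFA and from 9.79 to 47.9 CPM in HFA. T2334 was the highest at 47.9 CPM and the next HFA library was T2314 at 25.9 CPM. The log2 fold change of Gadd45b was 0.25 (SE 0.413, adjusted p 0.902) and turned to -0.25 without T2334.

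Among the p53 targets, Mdm2 varied least. Mdm2 (chromosome 10 from 117688875 to 117710758, minus strand), which both inhibits p53 and is induced by it, stood at 36.7 CPM in T1224, 36.6 in T1234, 36.5 in T1314, 35.3 in T1324 and 53.1 in T1334. In HFA it stood at 38.4 CPM in T2214, 48.9 in T2224, 39.9 in T2234, 49.5 in T2314 and 48.0 in T2334. In CFA, 4 libraries lay between 35.3 and 36.7 CPM, below every HFA library, and T1334 was above every HFA library. The highest library was 1.505 times the lowest. The log2 fold change was 0.18 (SE 0.145, adjusted p 0.785, edgeR quasi-likelihood) over all libraries, 0.10 to 0.31 with 1 library left out and 0.29 without the 3 libraries with B and T cell markers.

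Bbc3 (PUMA, chromosome 7 from 16308393 to 16318205, plus strand), a BCL2-family protein that triggers cell death, was the lowest gene and the one whose spread differed most between diets. Its CFA levels were 4.33 CPM in T1224, 6.03 in T1234, 5.27 in T1314, 5.27 in T1324 and 6.04 in T1334, a coefficient of variation of 13.1%. Its HFA levels were 4.10 CPM in T2214, 2.50 in T2224, 2.27 in T2234, 8.14 in T2314 and 12.2 in T2334, a coefficient of variation of 72.8%. In HFA, 3 libraries were below every CFA library and the other 2 were above every CFA library. The 3 low ones have 2 as the second digit of their title and the 2 high ones have 3. The log2 fold change was 0.13 (SE 0.435, adjusted p 0.953, edgeR quasi-likelihood) over all libraries and -0.38 without T2334. It was -0.76 within the digit 2, 0.79 within the digit 3 and 0.069 with that digit as a term. The fits thus gave no single direction for Bbc3. The study itself reported Bbc3 as its top downregulated gene in HFA, from a model that also held cage. Cage is not in the labels, so that model could not be fitted here. The lowest value rested on 16 reads.

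Ccng1 (cyclin G1, chromosome 11 from 40748552 to 40755311, minus strand), a p53 target that acts with the phosphatase PP2A on Mdm2, spanned the widest range in CPM. It measured 391 CPM in T1224, 249 in T1234, 506 in T1314, 690 in T1324 and 725 in T1334 in CFA. In HFA it measured 749 CPM in T2214, 911 in T2224, 670 in T2234, 952 in T2314 and 189 in T2334. In HFA, 3 libraries exceeded every CFA library and T2334 was the lowest of all. The log2 fold change was 0.44 (SE 0.422, adjusted p 0.827, edgeR quasi-likelihood), 0.64 without T2334, 1.30 within the title digit 2 (adjusted p 0.0378) and -0.24 within the digit 3. Within the digit 2, 1418 of 15549 genes were called, so nothing particular to Ccng1 is read from that p.

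Trp53inp1 (chromosome 4 from 11156431 to 11174379, plus strand), which partners p53 in stress responses and takes part in autophagy, was at 60.7 CPM in T1224, 101 in T1234, 55.1 in T1314, 41.4 in T1324 and 71.7 in T1334. In HFA it was at 44.1 CPM in T2214, 59.2 in T2224, 56.5 in T2234, 56.6 in T2314 and 212 in T2334. T2334 held 3.74 times the median of the other 9 libraries. The log2 fold change was 0.38 (SE 0.441, adjusted p 0.857, edgeR quasi-likelihood) and -0.33 without T2334.

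Several of the 10 genes moved with the markers of a cell type from library to library. All 100 relations of the 10 genes with 10 sums of markers (B and T cells counted as one) were computed on log2 values over the 10 libraries, with permutation p-values from 100000 permutations, two-sided, and adjusted over the 100. The libraries are mixtures, so these relations share the composition and depth of each library. Ccng1 rose with skeletal muscle markers, whose list holds the muscle genes Ckm, Acta1, Myh4, Mylpf and Tnnt3. Pearson's r was 0.94 (permutation p = 1e-05, the smallest the permutations can give, adjusted 0.00100) and Spearman's rho 0.99 (permutation p = 2.00e-05, adjusted 0.00200). Without the 2 libraries farthest in muscle markers, T1234 and T2334, r was 0.97. Ccng1 also had an r of 0.87 and a rho of 0.78 with the Schwann cell markers described below, given with no test. With the muscle markers as a covariate, a choice made after seeing the data, the log2 fold change of Ccng1 between diets was 0.33.

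Cdkn1c rose with epithelial markers. Its r was 0.93 (permutation p = 2.00e-05, adjusted 0.00100) and its rho 0.93 (permutation p = 3.00e-04, adjusted 0.0150), and r was 0.93 without T1334 and T2334, the farthest 2. The epithelial sum was 364 to 1745 CPM in CFA and 226 to 1153 CPM in HFA, a difference that did not pass an exact two-sided permutation test over the libraries (p = 0.206, adjusted 0.480 over 11 marker lists). All 6 epithelial markers had a lower fitted level in HFA (median -0.97 on the log2 scale). With the epithelial markers as a covariate the log2 fold change of Cdkn1c was -0.21. Mdm2 ran the other way, with an r of -0.78 (permutation p = 0.00395, adjusted 0.0468) and a rho of -0.81 (permutation p = 0.00726, adjusted 0.146), and r was -0.79 without the same 2 libraries. With the epithelial covariate the log2 fold change of Mdm2 was 0.066.

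Trp53inp1 followed the libraries with lymphocyte markers. In the 3 libraries with B and T cell markers it lay between 71.7 and 212 CPM and in the other 7 between 41.4 and 60.7 CPM, without overlap. Since the libraries form 2 clusters in these markers no pooled correlation is given, and within the 7 libraries r was 0.22 and rho 0.18 at marker sums that hardly varied. Cdkn1b fell as muscle markers rose, with an r of -0.91 (permutation p = 0.00149, adjusted 0.0298) and a rho of -0.68 (permutation p = 0.0338, adjusted 0.219), but r was -0.47 without T1234 and T2334, so the relation rests on those libraries. Gadd45b had an r of -0.79 with fibroblast markers (permutation p = 0.00421, adjusted 0.0468) and a rho of -0.60 (permutation p = 0.0736, adjusted 0.301), and r was -0.49 without T2314 and T2334. Cdkn1b was between 89.5 and 135 CPM in the 3 libraries with B and T cell markers and between 68.6 and 94.6 CPM in the 7, which overlapped. Gadd45b was between 23.7 and 47.9 CPM in the same 3 libraries and between 9.79 and 25.9 CPM in the 7, which also overlapped.

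**Figure D3:**
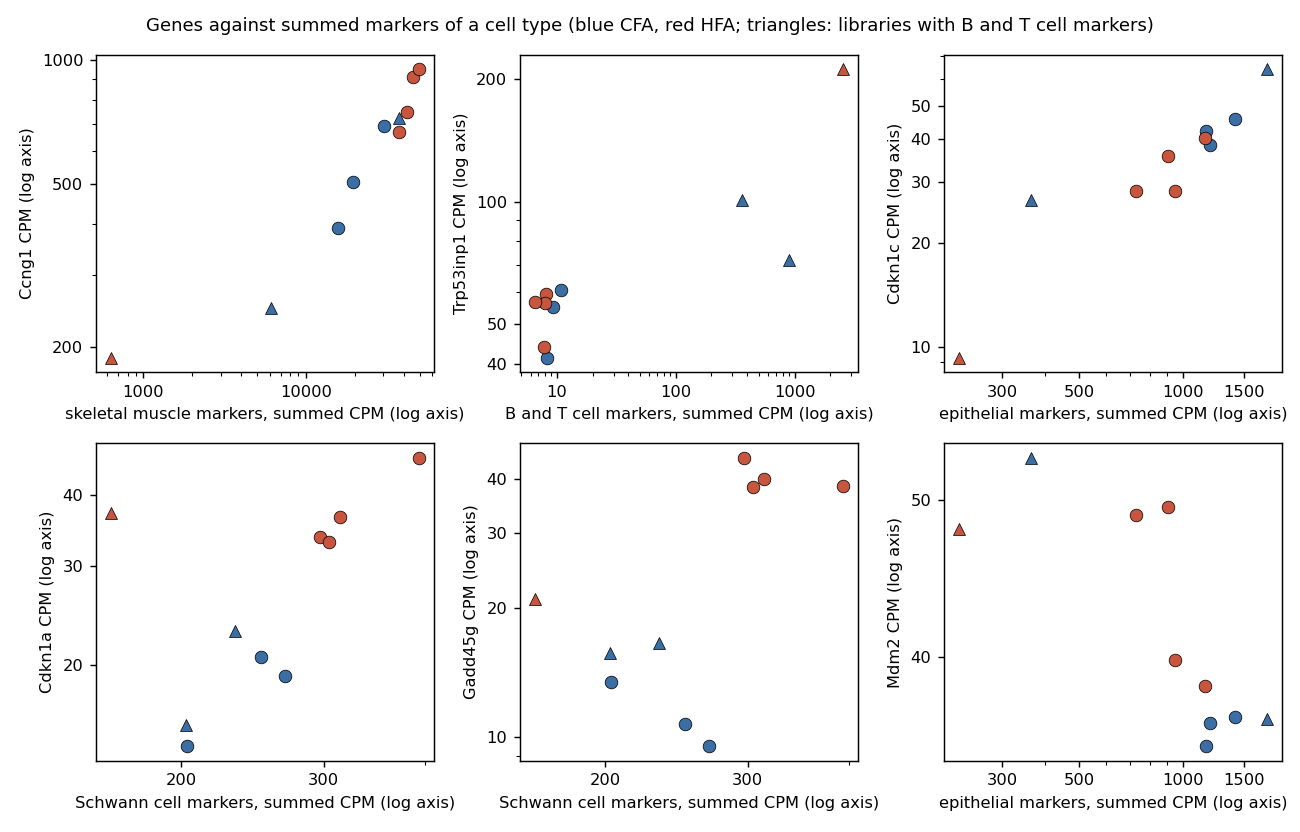
Level of Ccng1, Trp53inp1, Cdkn1c, Cdkn1a, Gadd45g and Mdm2 (CPM, log axis) against the summed CPM of markers of a cell type (log axis) in each library. Blue is CFA, red is HFA, and triangles are the 3 libraries with B and T cell markers. Mdm2 tends to be lower where epithelial markers are higher. Ccng1 rises with muscle and Cdkn1c with epithelial markers along one line through both diets, Trp53inp1 is highest in the triangles, and Cdkn1a and Gadd45g are higher in the 4 HFA libraries with 297 to 394 CPM of Schwann cell markers and in T2334, which has 164 CPM.

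Over all 10 libraries, no relation of Cdkn1a or Gadd45g with any marker list passed the adjustment. Nearest to passing for Cdkn1a were endothelial markers, with an r of 0.63 (permutation p = 0.0243, adjusted 0.120) and a rho of 0.71 (permutation p = 0.0273, adjusted 0.195), and epithelial markers, with an r of -0.51 (permutation p = 0.140, adjusted 0.284) and a rho of -0.81 (permutation p = 0.00732, adjusted 0.146). Gadd45g had a rho of 0.79 with endothelial markers (permutation p = 0.00909, adjusted 0.147) and an r of 0.45 (permutation p = 0.180, adjusted 0.315). With muscle markers r was 0.092 for Cdkn1a and 0.29 for Gadd45g over the 10 libraries, and 0.88 and 0.78 without T1234 and T2334. Without T1334 and T2334, r with epithelial markers was -0.90 for Cdkn1a and -0.63 for Gadd45g. Endothelial r was 0.69 and 0.66 without T1234 and T2214. These values without 2 libraries were not tested. Schwann cells, the cells that wrap nerve fibres in myelin, were read from Mbp, Pmp22 and Prx, a list shortened after the results were seen and so given with no test. Their sum was 203 to 269 CPM in the CFA libraries, 297 to 394 CPM in 4 HFA libraries and 164 CPM in T2334. None of the 3 was at 0 in any library. The r of this sum was 0.53 with Cdkn1a and 0.57 with Gadd45g over the 10 libraries, and 0.92 and 0.68 without T2224 and T2334. Brown adipocyte markers had a higher fitted level in HFA for 5 of 5 genes and summed to 87.2 to 637 CPM in CFA and 187 to 1939 CPM in HFA (exact permutation p = 0.0714, adjusted 0.393). No marker list passed between diets, and the smallest exact permutation p was 0.0317, for endothelial markers (adjusted 0.349). In T2334 the Schwann cell sum was the lowest of all 10 libraries while Cdkn1a was 37.2 CPM and Gadd45g 21.0045 CPM, both above every CFA library. The 3 markers differed in that library, where Pmp22 (53.2 CPM) and Prx (3.37 CPM) were at their lowest of all libraries. Mbp was 107 CPM in T2334, against 57.8 to 76.3 CPM in CFA and 89.8 to 158 CPM over all HFA libraries. With the Schwann cell markers as a covariate, added after seeing the data, the log2 fold changes were 0.96 for Cdkn1a and 1.23 for Gadd45g, and that of Ccng1 was -0.31. With muscle markers as the covariate they were 1.01 and 1.43. The part of nerve or muscle content in the diet difference of these genes was not tested beyond these fits.

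The genes most like each of the 10 were taken as the 2 with the highest Pearson correlation of log2 CPM over the 10 libraries. For Cdkn1a they were Mbp (r = 0.945), a myelin protein, and Ncor1 (0.916), and without T2334 the first was Cadm2 (0.978). For Gadd45g they were Pip5k1a (0.961) and Zfp672 (0.933). For Ccng1 they were Ppm1l and Dcun1d2 (both 0.995). Cdkn1b was most like Ogfr (0.988) and Gm7536 (0.984), and Cdkn1c most like Capn8 (0.972) and Mmp15 (0.971). Gadd45a was nearest to Hdgf (0.987) and Gm13453 (0.961), and Gadd45b to D730003I15Rik (0.978) and Trp53rka (0.977). Bbc3 was nearest to Top3a (0.949) and Dus4l (0.941), Mdm2 to Luc7l2 (0.927) and Mreg (0.916), and Trp53inp1 to Slc7a6os and Mynn (both 0.981). Of these 20 partners, 6 were kept when T2334 was left out.

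The wider pathway was read from 7 lists with 98 tested genes of 101 listed. None of the 98 passed an adjusted p of 0.05 (edgeR quasi-likelihood), 52 had a higher and 46 a lower fitted level in HFA, and 6 in each direction had an unadjusted p under 0.05. Over all genes tested, 60.0% had a higher fitted level and 7.36% an unadjusted p under 0.05 (604 higher and 545 lower). These shares are the background for the counts of each list below.

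**Figure D4:**
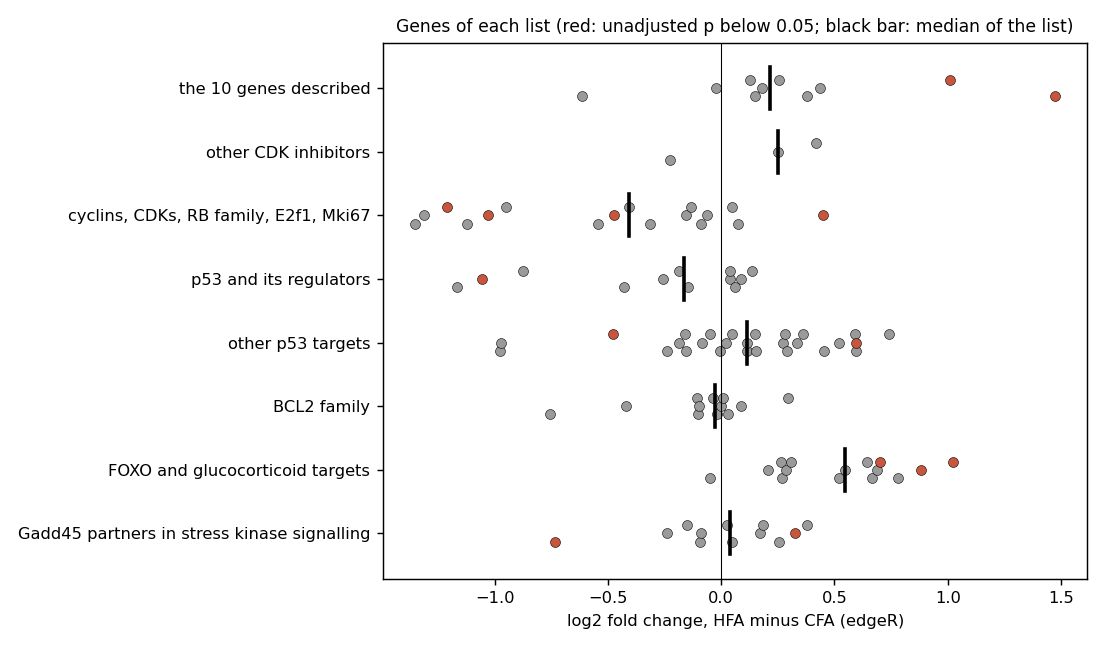
Fitted log2 fold change, HFA minus CFA, of each tested gene in the 7 lists and of the 10 genes described, with red for an unadjusted p under 0.05 and a black bar at the median of each list. The genes of the cell cycle machinery lie mostly to the left of 0 (median -0.41) and the FOXO and glucocorticoid targets almost wholly to the right (median 0.55).

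The list of the cell cycle machinery that CDK inhibitors act on held cyclins and cyclin-dependent kinases together with Rb1, Rbl1, Rbl2, E2f1 and Mki67, and 14 of its 17 genes had a lower fitted level in HFA. Its median log2 fold change was -0.41, against 0.064 over all genes. Of the 12 cyclins and kinases alone 11 were lower, with a median of -0.44. The 6 epithelial markers were also all lower in HFA (median -0.97), 1 of them with an unadjusted p under 0.05, and the part of epithelial content in the cell cycle genes was not tested. Cdk1, the kinase of mitosis, was at 12.05 ± 4.89 CPM in CFA and 5.16 ± 3.70 CPM in HFA (SD, n = 5), a log2 fold change of -1.21 (unadjusted p 0.0235, adjusted 0.655, edgeR quasi-likelihood). Ccnd1, the cyclin that starts the cycle on growth signals, was at 144 ± 42.7 and 70.5 ± 25.0 CPM, a log2 fold change of -1.03 (adjusted p 0.648), and Cdk6 had -0.47 (adjusted p 0.657). Rbl2, the retinoblastoma relative p130 of resting cells, was the one with an unadjusted p under 0.05 on the higher side, at 66.5 ± 8.38 and 90.8 ± 12.5 CPM. Every HFA library was above every CFA library, as for 0.75% of all genes. The margin was narrow, with 75.9 CPM as the lowest HFA and 75.2 CPM as the highest CFA value. By level, Ccnd2 was the highest gene of the list (229 and 215 CPM) and Ccnb1 the lowest (2.80 and 1.39 CPM). The other CDK inhibitors, of the Cdkn2 family, had 3 tested genes with 2 higher and 1 lower and none with an unadjusted p under 0.05. Their highest was Cdkn2c, at 75.9 and 90.4 CPM, and Cdkn2a, at 0.356 and 0.377 CPM, was too low to be tested.

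For p53 and its regulators, 5 of 12 genes were higher and 7 lower, with a median of -0.17. Trp53 itself was at 49.8 ± 8.93 CPM in CFA and 41.6 ± 24.1 CPM in HFA (SD, n = 5), with 84.0 CPM in T2334 alone. Its log2 fold change was -0.26 (adjusted p 0.862, edgeR quasi-likelihood). Chek1, the checkpoint kinase of DNA replication stress, had a log2 fold change of -1.06 (unadjusted p 0.0335, adjusted 0.657). By level, Mdm4 was the highest (133 and 142 CPM) and Trp73 the lowest (3.05 and 1.40 CPM).

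Of 27 tested genes among the other p53 targets, 17 were higher and 10 lower, the median was 0.11, and 1 gene on each side had an unadjusted p under 0.05. Sesn2, a stress-induced inhibitor of growth signalling, was at 15.4 ± 4.30 and 23.2 ± 6.31 CPM (SD, n = 5), a log2 fold change of 0.59 (adjusted p 0.667, edgeR quasi-likelihood). Tnfrsf10b, a death receptor, was at 9.92 ± 1.04 and 7.10 ± 1.33 CPM, a log2 fold change of -0.48 (adjusted p 0.655). Every HFA library was below every CFA library by a narrow margin (highest HFA 8.53 CPM, lowest CFA 8.81 CPM). Phlda3 was the highest of these targets (189 and 161 CPM) and Gdf15 the lowest (0.236 and 0.375 CPM), too low to be tested. In the BCL2 family, partners of Bbc3 in the control of cell death, 4 of 12 were higher and 8 lower, none with an unadjusted p under 0.05, and the median was -0.027. Mcl1 was the highest (225 and 275 CPM), and Hrk (0.198 and 0.382 CPM) was too low to be tested.

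The FOXO and glucocorticoid targets are a list of genes induced by signals that can also induce Cdkn1a and Gadd45 genes. They had a higher fitted level in HFA for 14 of 15 genes, against 60.0% of all genes. Their median log2 fold change was 0.55, against 0.064 over all genes. Skeletal muscle and brown adipocyte markers were also higher in HFA for 5 of 5 genes each, and the part of muscle or fat content in this list was not tested. Pdk4, the kinase that spares glucose during fasting, was at 414 ± 132 CPM in CFA and 841 ± 224.2 CPM in HFA (SD, n = 5), a log2 fold change of 1.02 (unadjusted p 0.00302, adjusted 0.648, edgeR quasi-likelihood). Zbtb16 was at 21.7 ± 6.19 and 39.9 ± 16.7 CPM, a log2 fold change of 0.88 (adjusted p 0.655), and the clock gene Per1 was at 67.2 ± 18.0 and 109 ± 46.8 CPM, a log2 fold change of 0.70 (adjusted p 0.667). In T2334 these stood at 585, 17.9 and 63.4 CPM, the lowest HFA values of all 3 genes. Txnip was the highest of the list (1120 and 1364 CPM) and Mt2 the lowest (9.23 and 15.9 CPM).

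The partners of Gadd45 proteins in stress kinase signalling showed no common direction, with 7 of 12 higher, 5 lower and a median of 0.037. Map2k7, the kinase that activates JNK and is bound by Gadd45b, was at 68.5 ± 3.68 and 85.9 ± 9.54 CPM (SD, n = 5), a log2 fold change of 0.33 (unadjusted p 0.00964, adjusted 0.655, edgeR quasi-likelihood). Myc was at 50.9 ± 13.2 and 30.6 ± 13.3 CPM, a log2 fold change of -0.73 (adjusted p 0.657). Mapk14 was the highest of the list (112 and 134 CPM) and Map2k6 the lowest over all libraries together (9.51 and 8.06 CPM).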

How the data were processed

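Mammary gland libraries (Illumina TruSeq v2, 75 bp paired-end, strand not kept) from 5 CFA and 5 HFA mice were used as deposited. The authors aligned the reads to mm10 with TopHat2 2.0.14 and Bowtie2 2.2.5 and made raw read counts per Ensembl gene with HTSeq 0.6.1, which counts uniquely placed reads in exons and leaves out reads shared by overlapping genes. The 5 summary lines of each count table were left out. Groups came from the diet label.

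Counts were filtered with filterByExpr, scaled by TMM and fitted with edgeR 4.0.16 (quasi-likelihood, HFA minus CFA, Benjamini-Hochberg over all genes tested, threshold 0.05). The study's model also held cage, which the labels do not give. DESeq2 1.42.0 and limma 3.58.1 served as alternatives. Permutation tests used scipy 1.17.1 and numpy 2.4.6. P-values measure the spread between mice, 1 library each.

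The 10 genes, the lists and the marker lists were chosen with earlier results of these data known. Named were the 10 genes, list genes with an unadjusted p under 0.05 (at most 4 a list), the highest and lowest of each list by level, Trp53, and the 2 genes most correlated with each of the 10 (log2 CPM, prior count 2). Upstream windows and start sites were RefSeq's (GRCm38.p6). The Schwann cell list was reduced after the results were seen to 3 genes, and its other genes are not reported here.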

Additional observations from a re-analysis of the deposited data

Results flagged for a closer look

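In groups of 5 libraries, a library was marked when its gap to the nearest other library, as a share of the group's range, was above 0.71. Of 42 groups examined (10 genes and 11 marker lists in each diet), 8 were marked, 6 of them for T2334, and chance marks about 1 in 20.

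Of these marks, 4 fell on the genes described. Cdkn1b in HFA had T2334 as the high library (135 CPM, gap ratio 0.774). Gadd45g in HFA had T2334 as the low library (21.0045 CPM, gap ratio 0.730). Trp53inp1 in HFA had T2334 as the high library (212 CPM, gap ratio 0.910). Mdm2 in CFA had T1334 as the high library (53.1 CPM, gap ratio 0.917).

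The other marks fell on cell type markers. In HFA the B cell markers (2084 CPM, gap ratio 0.99976) and T cell markers (476 CPM, gap ratio 0.998) were highest in T2334, and the skeletal muscle markers lowest there (635 CPM, gap ratio 0.752). In CFA the endothelial markers were lowest in T1234 (389 CPM, gap ratio 0.893).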

How the results depend on the processing

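The main test called 0 genes of all and 0 of the 10. Over all genes, the likelihood ratio test called 33, DESeq2 60, voom with quality weights 1037, a B and T cell covariate 3, an epithelial covariate 1, the title digit 2 alone 1418, and leaving out the 3 libraries with B and T cell markers (chosen after seeing the data) 469. Leaving out 1 library gave 0 to 6. Of the 10, the counts were 2, 2, 2 and 3 for the first 3 of these tests and the digit 2 alone, 2 without the 3 libraries, and 0 to 1 with 1 library left out. A replicate block over the 4 pairs of titles that share their last 3 digits called 0 genes. Deviations of the pairs correlated from -0.294 to 0.410, so the titles were not taken as pairs. Cdkn1a, Gadd45g, Cdkn1c and Mdm2 kept their direction in all 28 alternatives (25 planned, 3 added). The others changed sign in some fits, and the cause was not tested. Log2 fold changes of the opposite sign were as follows. Cdkn1b had 0.017 with the B and T cell covariate, 0.34 in the digit 3 and 0.18 with the Schwann cell covariate. Gadd45a had -0.016 in the digit 3 and -0.17 with the Schwann cell covariate. Gadd45b had -0.14 with quality weights, -0.25 with the epithelial covariate and -0.67 in the digit 2. Bbc3 had -0.059 with voom, -0.46 with quality weights, -0.084 with the replicate block, -0.35 with the epithelial and -0.019 with the muscle covariate, -0.76 in the digit 2 and -0.21 without the 3 libraries. Ccng1 had -0.24 in the digit 3 and -0.31 with the Schwann cell covariate. Trp53inp1 had -0.20 with quality weights, -0.33 with the epithelial covariate and -0.56 in the digit 2. With 1 library left out, the ranges were -0.28 to 0.053 for Cdkn1b, -0.079 to 0.27 for Gadd45a, -0.25 to 0.44 for Gadd45b, -0.38 to 0.33 for Bbc3 and -0.33 to 0.54 for Trp53inp1. Of 20 most similar genes, 6 were kept by Spearman correlation, 6 without T2334 and 4 without the 3 libraries. No marker list passed on the mean log2 scale, and RLE scaling moved no mean level by over 1 SD. Depth limits Bbc3 most, at 16 to 191 reads.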
